A study of Drosophila melanogaster with 8 samples.

Results

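The 6 annotated transcripts of held out wings (how) were followed through a pull-down of one of the proteins that this gene encodes. They were selected by transcript identifier, as FBtr0084178 (how-RB), FBtr0100514 (how-RC), FBtr0084177 (how-RA), FBtr0301401 (how-RD), FBtr0301402 (how-RE) and FBtr0335195 (how-RF), and were 6 of the 30069 transcripts quantified in each library. RNA was sequenced from lysates (input) and from anti-HA bead elutions (pull-down) of Drosophila melanogaster testes. Flies of 3 samples carried UAS-HOW-S-HA/nanos-GAL4, which expresses HA-tagged HOW(S) from a transgene, and gave 3 inputs and 3 pull-downs. The parental nanos-GAL4/nanos-GAL4 line, with no HA-tagged protein, gave 1 input and 1 pull-down, so the control has no replicate of its own. Both lines carry the nanos-GAL4 driver, which acts in germline stem cells and early spermatogonia. The driver limits the tagged protein to early germ cells, whereas the lysate was made from whole testes. The input is the supernatant of that lysate after centrifugation, and the study calls it cytoplasmic. Young adult males, mated and unmated, were used and many pairs of testes were pooled for each sample. The identifiers are paired with no gene names in the files, so the labelled tissue was not checked against its marker genes.

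HOW is a STAR-family RNA-binding protein, a relative of vertebrate Quaking (QKI) and nematode GLD-1, and acts after transcription on the splicing, export, stability and translation of its targets. Alternative 3′ ends of how give proteins with the same STAR domain, the RNA-binding part, and different C-termini. HOW(L), the long protein, carries a nuclear localisation signal and is mainly nuclear, whereas HOW(S), the short protein used in the pull-down, is cytoplasmic. In the Drosophila testis HOW is needed to maintain germline stem cells and for spermatogonia to divide correctly.

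The how gene lies at 3R:22042191-22079321 of the Release 6 assembly and has 6 RefSeq transcripts. All 6 isoforms share the exons that code for the STAR domain. how-RB (1759 nt) ends within a longer version of a late coding exon that the others share and encodes HOW(S). how-RC (2181 nt) has a last exon of its own and is the remaining isoform, taken here to encode the medium protein HOW(M). how-RE (3103 nt), how-RD (3884 nt), how-RA (3964 nt) and how-RF (4003 nt) continue into a further coding exon and a distant 3′ UTR exon and encode HOW(L). These 4 form the long class. how-RA is 39 nt shorter than how-RF and how-RD is 119 nt shorter, so most reads of one are also reads of the other, and Salmon, the quantifier, divided such reads between them.

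Salmon assigned between 9131088 and 24018472 reads per library, and input 1 of HOW(S)-HA was the shallowest. The 6 isoforms together received 240, 504 and 457 reads from the 3 HOW(S)-HA inputs, against 1709, 1528 and 1051 reads from their pull-downs. nanos-GAL4 had 412 how reads before and 694 after the pull-down. These sums were whole to within 0.002 of a read in 8 of 8 libraries, although the values of single isoforms were not, so reads were divided among how isoforms only. The gene sum of reads therefore carries no error from that division. Summed TPM does carry it, because each read is weighted by the length of the isoform it was assigned to. In RPM, reads scaled to a common library total, how took 26.3 (95% Wilson interval 23.2 to 29.8), 24.3 (22.2 to 26.5) and 22.9 (20.8 to 25.0) across the HOW(S)-HA inputs and 20.7 (18.8 to 22.8) in the nanos-GAL4 input. The pull-downs gave 83.4 (79.5 to 87.5), 63.6 (60.5 to 66.9) and 48.5 (45.7 to 51.5) with HOW(S)-HA and 29.9 (27.8 to 32.2) with nanos-GAL4. Such intervals cover counting error only. On this measure every HOW(S)-HA pull-down lay above the nanos-GAL4 pull-down, and both lines yielded relatively more how reads after the pull-down than before it.

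how RNA was scarce in the lysates and more abundant in the elutions of both lines. TPM, the abundance unit of Salmon, is corrected for transcript length and relative to all transcripts of a library. The summed TPM was 2.73, 3.56 and 3.19 across the HOW(S)-HA inputs (mean 3.16 ± 0.419 SD, n = 3) and 26.0, 17.9 and 9.22 across their pull-downs (17.7 ± 8.40, n = 3). For nanos-GAL4 it went from 3.65 to 10.2. The nanos-GAL4 input was slightly above the highest HOW(S)-HA input, and the nanos-GAL4 pull-down fell between HOW(S)-HA pull-downs 3 and 2. The ratio of pull-down to input TPM was 9.54, 5.01 and 2.89 in the 3 HOW(S)-HA pairs and 2.80 in the nanos-GAL4 pair, so replicate 3 and the control differed little on this scale. Every pull-down of both lines was above every input (on normalised CPM, 21.7% of transcripts tested had all 3 HOW(S)-HA pull-downs above all 3 inputs), whereas the order HOW(S)-HA over nanos-GAL4 held for neither all pull-downs nor all inputs.

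**Figure D1:**
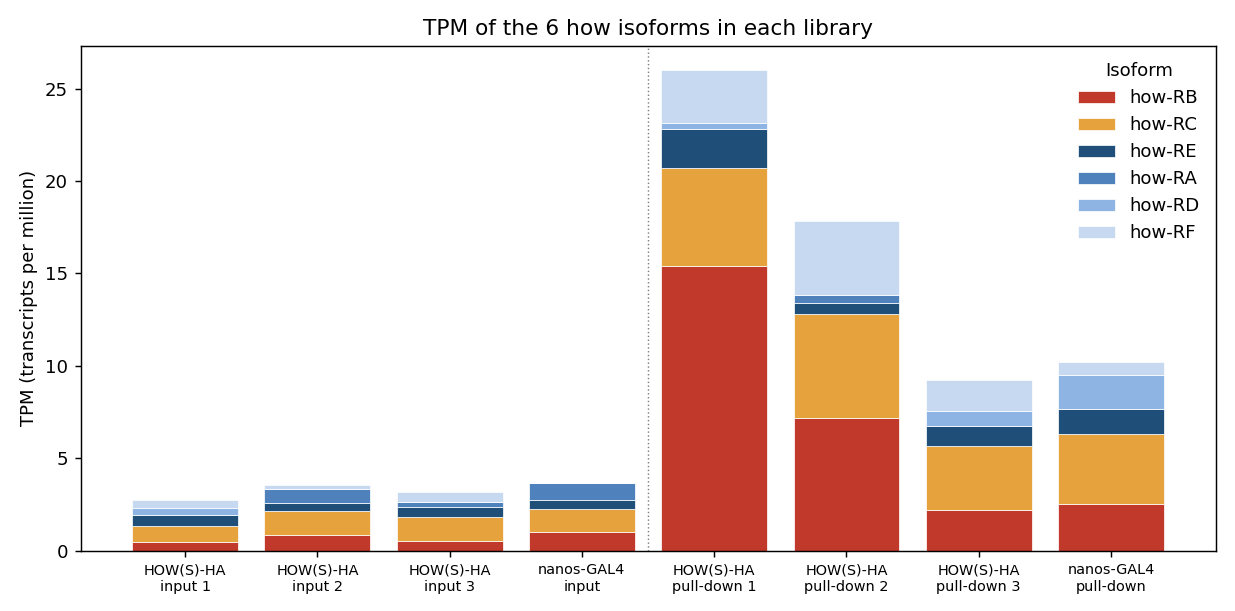
Stacked bars give the TPM of each how isoform in the 8 libraries, inputs on the left and pull-downs on the right of the dotted line. The summed TPM of the 4 inputs ran from 2.73 to 3.65 and that of the 4 pull-downs from 9.22 to 26.0, and the how-RB segment ranged from 2.19 to 15.4 TPM among the pull-downs.

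how-RB, the transcript that encodes HOW(S), showed the widest span of the isoforms among the pull-downs. Its TPM was 0.457, 0.844 and 0.538 across the HOW(S)-HA inputs (0.613 ± 0.204 SD, n = 3) and 15.4, 7.17 and 2.19 across their pull-downs (8.26 ± 6.69, n = 3). nanos-GAL4 went from 1.02 to 2.51 TPM. Pull-downs 1 and 2 were above every other library, whereas pull-down 3 was below the nanos-GAL4 pull-down. Salmon's estimated reads of how-RB were 23.6, 74.3 and 47.0 for the HOW(S)-HA inputs, 773, 412 and 156 for their pull-downs, and 73.1 and 108 in the nanos-GAL4 input and pull-down. The nanos-GAL4 input, from flies without the UAS-HOW-S-HA transgene, had more how-RB TPM than any of the HOW(S)-HA inputs. That transgene encodes HOW(S) and its untranslated regions are not given in the sources used here, so its RNA and that of the gene's own how-RB cannot be told apart in these values.

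The share of how TPM held by how-RB was higher after the pull-down in 3 of 3 HOW(S)-HA pairs. It went from 16.8% to 59.3% in pair 1, from 23.7% to 40.1% in pair 2 and from 16.9% to 23.7% in pair 3, a mean difference of 21.96 percentage points (SD 18.5, n = 3 pairs). The exact sign-flip permutation test gave p = 0.25 (two-sided, n = 3), the smallest value that 3 pairs allow. In the nanos-GAL4 pair the share went from 27.9% to 24.6%. Pair 3 ended at almost the same how-RB share as the nanos-GAL4 pull-down.

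Shares of estimated reads, not corrected for length, ran the same way. how-RB held 9.82% of how reads in input 1 (95% Wilson interval 6.81 to 14.4) and 45.2% in pull-down 1 (42.9 to 47.6). In pair 2 it held 14.7% (11.9 to 18.0) and 27.0% (24.8 to 29.2). In pair 3 it held 10.3% (7.82 to 13.4) and 14.8% (12.8 to 17.1), and in nanos-GAL4 17.8% (14.3 to 21.7) and 15.6% (13.1 to 18.4). The intervals of input and pull-down were apart in pairs 1 and 2 and overlapped in pair 3 and in nanos-GAL4. They treat estimated reads as counts, and leave out the error of dividing shared reads and the spread between libraries. Of the how TPM that each pull-down held beyond its input, how-RB made up 64.3%, 44.2% and 27.4% in the HOW(S)-HA pairs and 22.8% in nanos-GAL4.

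Ratios between isoforms inside a library do not depend on how libraries are scaled to each other. The TPM of how-RB over how-RC was 0.507, 0.640 and 0.411 across the HOW(S)-HA inputs and 2.93, 1.27 and 0.629 across their pull-downs. It went from 0.805 to 0.661 in nanos-GAL4. The ratio thus changed 5.78-fold, 1.98-fold and 1.53-fold in the HOW(S)-HA pairs and 0.821-fold in the control pair. how-RB outnumbered how-RC in pull-downs 1 and 2 and in no other library.

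**Figure D2:**
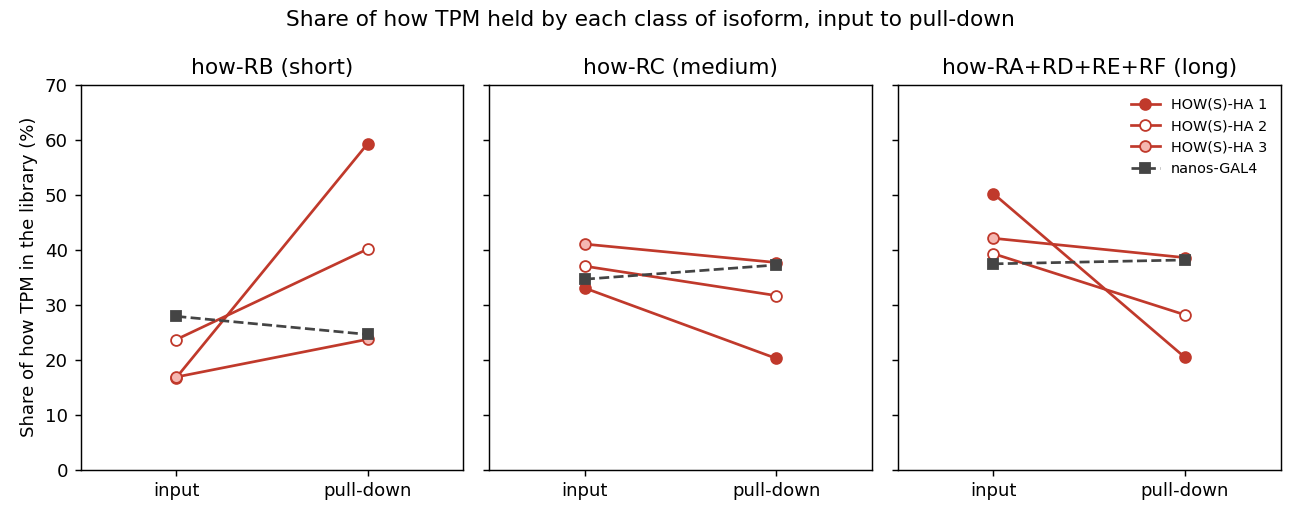
Each line joins the input and pull-down of 1 pair and gives the share of the library's how TPM (%) held by how-RB, how-RC or the long class (how-RA, RD, RE and RF). The how-RB share was higher in the pull-down of the 3 HOW(S)-HA pairs, by 42.6, 16.5 and 6.86 percentage points, and went from 27.9% to 24.6% in nanos-GAL4.

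how-RC, the medium isoform, varied least among the pull-downs of the 4 isoforms detected in all of them. Its TPM was 0.901, 1.32 and 1.31 across the HOW(S)-HA inputs (1.18 ± 0.239 SD, n = 3) and 5.26, 5.66 and 3.47 across their pull-downs (4.798 ± 1.16, n = 3), with 1.27 and 3.80 in the nanos-GAL4 input and pull-down. The HOW(S)-HA pull-downs spanned 3.47 to 5.66 TPM and included the value of the control pull-down. Its share of how TPM averaged 37.0% over the inputs and 29.9% over the pull-downs of HOW(S)-HA and went from 34.7% to 37.2% in nanos-GAL4.

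The long class, which encodes nuclear HOW(L), was at 1.37, 1.40 and 1.34 TPM across the HOW(S)-HA inputs, and the nanos-GAL4 input was at 1.37 TPM. The 4 inputs lay within 1.04-fold of each other (CV 2.09% over the 3 HOW(S)-HA inputs), against 2.23-fold for how-RB and 1.46-fold for how-RC. This evenness was a property of TPM. On CPM (counts scaled to a common library size) scaled by TMM, edgeR's correction for library composition, the same inputs were at 2.29, 1.76 and 1.75 and nanos-GAL4 was at 1.44. In the pull-downs the long class reached 5.32, 5.03 and 3.56 TPM with HOW(S)-HA and 3.90 TPM with nanos-GAL4, so the groups of the 2 lines overlapped.

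how-RC and the long class kept close to each other in level. Their TPM ratio was 0.658, 0.942 and 0.975 for the HOW(S)-HA inputs, 0.990, 1.12 and 0.977 for the pull-downs, and 0.925 and 0.976 in nanos-GAL4. Leaving how-RB aside, the other 5 isoforms summed to 2.27, 2.72 and 2.65 TPM across the HOW(S)-HA inputs and to 10.6, 10.7 and 7.03 TPM across their pull-downs, with 2.63 and 7.70 TPM in nanos-GAL4. Without how-RB, pull-downs 1 and 2 were nearly equal, and the spread among the HOW(S)-HA pull-downs was narrower than for the full sum.

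The order of the 2 lines among the pull-downs depended on the scale. On TMM-normalised CPM the gene sum was 18.9, 12.8 and 9.60 in the HOW(S)-HA pull-downs against 6.51 with nanos-GAL4, and how-RB was 11.2, 5.14 and 2.28 against 1.60. how-RC was 3.83, 4.05 and 3.62 against 2.42, and the long class 3.87, 3.61 and 3.70 against 2.48. On that scale all 3 HOW(S)-HA pull-downs were above the control for each of these, whereas on TPM the control was above pull-down 3 for each. Shares and ratios within a library are the same on both scales.

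Inside the long class the values of single isoforms alternated between 0 and a measured level. how-RA was at 0, 0.748 and 0.298 TPM for the HOW(S)-HA inputs, at 0, 0.447 and 0 for the pull-downs, and at 0.905 and 0 in nanos-GAL4. how-RD was at 0.382, 0 and 0 TPM for the HOW(S)-HA inputs, at 0.357, 0 and 0.804 for the pull-downs, and at 0 and 1.84 in nanos-GAL4. how-RF was at 0.428, 0.205 and 0.526 TPM for the HOW(S)-HA inputs, at 2.85, 4.002 and 1.68 for the pull-downs, and at 0 and 0.724 in nanos-GAL4. Every library listed at least 1 of the 4 at 0. A count of 0 allows a share of how reads of up to 1.25% in the shallowest library, for counting error only and without the error of dividing shared reads. The sum of how-RA, RD and RF, which differ by 119 nt at most in length, was steadier, at 0.810, 0.953, 0.824 and 0.905 TPM in the 3 HOW(S)-HA inputs and the nanos-GAL4 input. In the pull-downs it was 3.21, 4.45 and 2.48 TPM with HOW(S)-HA and 2.56 TPM with nanos-GAL4.

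how-RE, the long isoform with the shorter 3′ UTR exon, was above 0 in 8 of 8 libraries. Its TPM was 0.559, 0.447 and 0.518 for the HOW(S)-HA inputs, 2.11, 0.583 and 1.07 for the pull-downs, and 0.463 and 1.34 in nanos-GAL4. Its level was 1.25-fold apart at most among the 4 inputs and 3.61-fold apart among the 4 pull-downs. Its share of how TPM averaged 16.4% over the HOW(S)-HA inputs and 7.66% over their pull-downs, and was lower in the pull-down in 3 of 3 pairs.

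**Figure D3:**
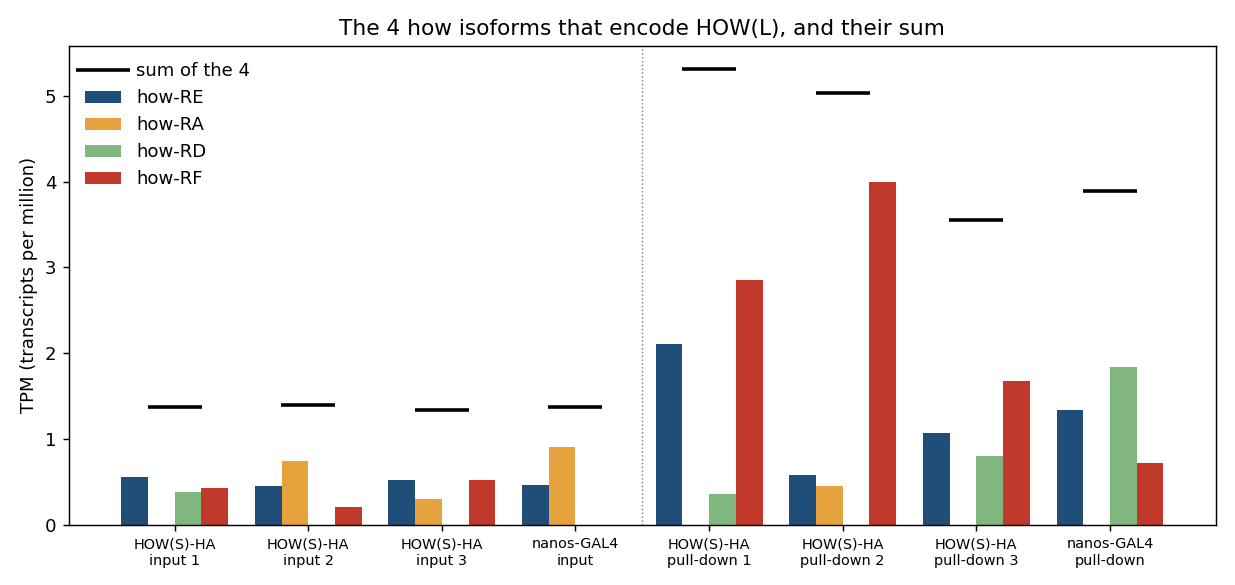
Bars give the TPM of how-RE, RA, RD and RF in each library, and the black line above them gives their sum. The sums of the 4 inputs lay between 1.34 and 1.40 TPM, while how-RA, RD and RF each fell to 0 in at least 1 of the 8 libraries.

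Enrichment of how RNA by the HOW(S)-HA pull-down was tested with edgeR's quasi-likelihood F-test on 16878 transcripts, with pair as a block and FDR correction over all of them. Calls needed an FDR-adjusted p value of at most 0.05 and a log2(fold change) past 1 or -1. With these settings no transcript was called enriched (0%) or depleted (0%), and so no how isoform was. At an unadjusted p value under 0.05, 1199 transcripts reached a log2(fold change) of 1 (7.1%) and 271 reached -1 (1.61%). At the adjusted threshold DESeq2 called 532 enriched (3.15%) and edgeR without the pair block 542 (3.21%). The paired edgeR test called 405 of 12618 transcripts enriched when the filter on low counts took all libraries as 1 group, so the absence of calls depends on the filter. how-RA and how-RD were too low for the main filter on low counts. This filter needed counts in as many libraries as 1 condition holds. how-RB, how-RE and how-RF were low in the inputs and passed it through the pull-downs. The filter over all libraries as 1 group dropped them. Of the 4 isoforms tested, how-RB, how-RC and how-RF had all 3 pull-downs above all 3 inputs on normalised CPM, as had 21.7% of all transcripts tested, and how-RE did not.

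Before any fit, the log2 ratio of pull-down to input for how-RB was 3.88, 2.28 and 1.70 in the HOW(S)-HA pairs on TMM-normalised CPM, and 0.57 in nanos-GAL4. For how-RC it was 1.35, 1.29 and 1.08, with 0.86 in nanos-GAL4. For the long class it was 0.76, 1.04 and 1.08, with 0.78 in nanos-GAL4. For the sum of the 6 it was 2.05, 1.51 and 1.21, with 0.75 in nanos-GAL4. All pairs of both lines were above 0. With TMM every HOW(S)-HA ratio of how-RB, how-RC and the sum was above the single control ratio, and the long class of pair 1 was below it. With library totals the control lay above pair 3 for how-RC (1.59 against 1.41) and for the long class (1.51 against 1.41), and pair 3 stayed above the control for how-RB (2.02 against 1.30) and the sum (1.53 against 1.48).

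The fitted log2(fold change) of how-RB was 2.57 (SE 0.49, FDR-adjusted p = 0.125), above 97.5% of the transcripts tested, whose median was 0.05. how-RB, how-RE and how-RF entered the test through the pull-downs, so their folds, ranks and p values are description only. how-RC had 1.33 (SE 0.19, FDR-adjusted p = 0.112) and how-RF 2.13 (SE 0.60, FDR-adjusted p = 0.164). how-RF shares most of its reads with how-RA and how-RD. Summed, how-RA, RD and RF had log2 ratios of 0.79, 1.41 and 1.27 in the HOW(S)-HA pairs and 0.77 in nanos-GAL4, on TMM-normalised CPM. how-RE had 0.45 (SE 0.42, FDR-adjusted p = 0.567). With summed counts in place of the single isoforms, the long class had 1.02 (SE 0.19, FDR-adjusted p = 0.122) and the whole gene 1.65 (SE 0.21, FDR-adjusted p = 0.102). On estimated reads, with no correction for length, the whole gene had 1.38 (SE 0.14, FDR-adjusted p = 0.172). The gene sum passed the threshold with DESeq2 (FDR-adjusted p = 0.000252). The value of how-RB there was 0.00436 (FDR-adjusted p, DESeq2), as description only. Without the pair block the gene sum had an FDR-adjusted p of 0.0275, how-RC 0.0134, the long class 0.0366 and how-RB 0.0555. With the filter as 1 group it was 0.0261 for the gene sum, 0.0321 for how-RC and 0.0455 for the long class in edgeR. With limma-voom the gene sum had an FDR-adjusted p of 0.0416. Scaling by library totals raised the log2(fold change) of the sum to 2.35, while the median of all transcripts moved from 0.05 to 0.75.

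**Figure D4:**
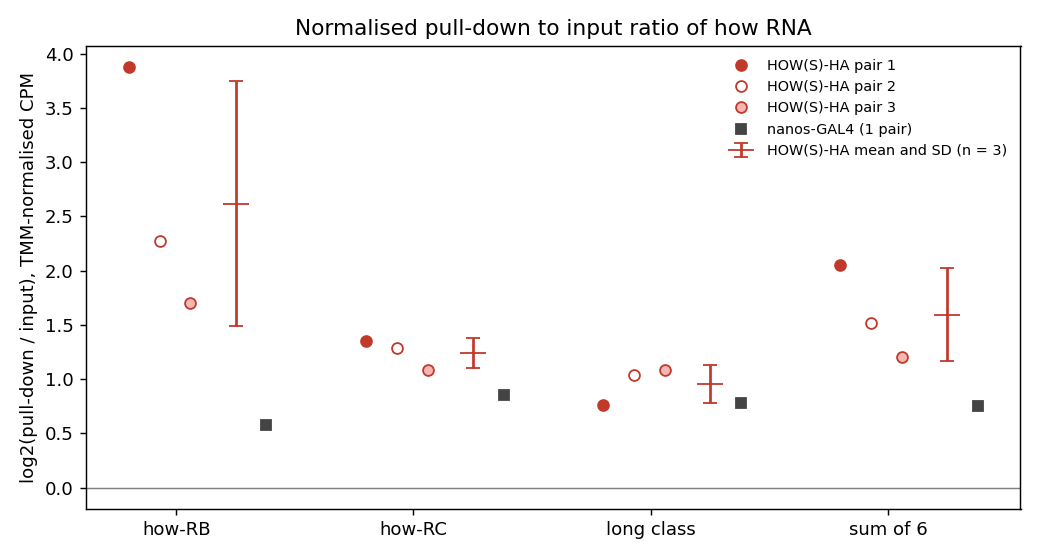
Points give the log2 ratio of pull-down to input on TMM-normalised CPM for each HOW(S)-HA pair (red circles) and for the single nanos-GAL4 pair (grey squares), and bars give the HOW(S)-HA mean and SD (n = 3). For how-RB the 3 pairs were at 3.88, 2.28 and 1.70 and nanos-GAL4 at 0.57, whereas for the long class nanos-GAL4 at 0.78 lay inside the HOW(S)-HA range of 0.76 to 1.08.

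Whether the enrichment differed between the lines was tested as the interaction of line and pull-down over all 8 libraries, with the spread taken from the HOW(S)-HA pairs alone. No how row was called, nor was any other transcript of 21693 in either direction (0%), with 3.11% at an unadjusted p value under 0.05. DESeq2 called 21 transcripts higher and 5 lower after adjustment. The log2 difference in enrichment, HOW(S)-HA minus nanos-GAL4, was 1.92 for how-RB (SE 0.95, FDR-adjusted p = 1). It was 0.39 for how-RC (SE 0.39), 0.16 for the long class (SE 0.40) and 0.82 for the sum (SE 0.42), each with an FDR-adjusted p of 1. how-RE had the opposite sign, at -0.46 (SE 0.86), also with an FDR-adjusted p of 1. The differences for how-RB and for the sum were each about 2 SE from 0, and neither was called. Those for how-RC, how-RE and the long class were within 1 SE. The values of how-RA, RD and RF rest on libraries at 0 and no difference in enrichment is given for them.

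Ranked among all 21693 transcripts of the same pair, the how-RB ratio was at percentile 95.1, 92.3 and 92.3 in the HOW(S)-HA pairs and 72.1 in nanos-GAL4. The filter behind this set took line and condition as groups, so adequate counts in 1 library were enough, and how-RA and how-RD passed it. Ratios for the ranks were taken from log2 CPM with a prior count of 2, unlike the ratios before any fit given above. how-RC was at percentile 79.0, 84.9 and 88.0, and 79.1 in nanos-GAL4. The pairs themselves differed in width, with an SD of the log2 ratio over all transcripts of 1.74, 1.35 and 1.16 in the HOW(S)-HA pairs and 1.30 in nanos-GAL4. The how-RB ratio and this width were in the same order among the HOW(S)-HA pairs, and the part of the width in the how-RB values was not tested. In nanos-GAL4, with no tagged protein, 17.4% of transcripts had a log2 ratio of 1 or more with TMM. On that scale how-RB, how-RC, the long class and the sum were under 1. With library totals in place of TMM all 4 passed 1, at 1.30 for how-RB, 1.59 for how-RC, 1.51 for the long class and 1.48 for the sum. Library totals raise the ratios of all transcripts of this pair, and the share of them past 1 was not counted. The 17.4% is therefore no background for these 4 values.

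Lysates of the 2 lines were compared to see how much the HOW(S)-HA line differed in how RNA before the pull-down. The log2(fold change) of HOW(S)-HA over nanos-GAL4 inputs was -0.29 for how-RB (SE 0.90), 0.28 for how-RC (SE 0.24), 0.43 for the long class (SE 0.28) and 0.19 for the sum (SE 0.38). The FDR-adjusted p was 1 for how-RB and for the sum, 0.938 for how-RC and 0.920 for the long class (edgeR), and 0 of these 4 passed, while 0.184% of transcripts tested did in either direction. For how-RB the SE leaves a change of severalfold either way undetected with 1 control input. In these bulk samples, fewer cells of a type and less RNA per cell cannot be told apart.

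Among the pull-downs, the log2(fold change) of HOW(S)-HA over nanos-GAL4 was 1.96 for how-RB (SE 0.89, FDR-adjusted p = 0.546) and 0.66 for how-RC (SE 0.23, FDR-adjusted p = 0.436). Without HOW(S)-HA replicate 1 the value for how-RB was 1.23 (FDR-adjusted p = 0.447). The long class had 0.59 (SE 0.26, FDR-adjusted p = 0.537) and the sum 1.08 (SE 0.38, FDR-adjusted p = 0.445). None passed, against 0.373% of transcripts tested that did in either direction. how-RF, at 0.724 TPM in the nanos-GAL4 pull-down and 1.68 to 4.002 TPM with HOW(S)-HA, had 2.24 (SE 0.72) and was not called. It shares most of its reads with how-RD, which was at 1.84 TPM in the nanos-GAL4 pull-down and at most 0.804 TPM with HOW(S)-HA. Summed, how-RA, RD and RF were at 2.56 TPM with nanos-GAL4 and 3.21, 4.45 and 2.48 TPM with HOW(S)-HA. The how-RF value alone is thus no measure of a difference between lines. For the sum, the order of levels was HOW(S)-HA input, nanos-GAL4 input, nanos-GAL4 pull-down and HOW(S)-HA pull-down by mean TPM, and neither neighbours within the inputs nor those within the pull-downs passed the test. The test used TMM-scaled counts, on which the order of the inputs was the reverse, with 4.56, 4.48 and 4.16 CPM for HOW(S)-HA and 3.86 for nanos-GAL4.

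The transcripts whose level most resembled that of how-RB were sought over the 8 libraries by Pearson's r of log2 CPM, as a description over samples that share line and pull-down. FBtr0087801 came first, with r = 0.987, and FBtr0346186 followed with r = 0.984. FBtr0346186 was near the floor, at 0, 0.0138 and 0.0138 TPM in the HOW(S)-HA inputs and at most 0.486 TPM in any library. Of 21692 transcripts, 60 had an r over 0.95 and 401 over 0.9. Among the other how isoforms, how-RC had r = 0.873, how-RF 0.644, how-RE 0.387, how-RD 0.0877 and how-RA -0.337. how-RD was at 0 in 3 of 4 inputs and how-RA in 3 of 4 pull-downs. In TPM, FBtr0087801 went from 2.26 to 11.5, from 3.29 to 9.38 and from 2.98 to 4.54 in the HOW(S)-HA pairs and from 3.69 to 7.29 in nanos-GAL4, a narrower span than that of how-RB in pair 1.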

How the data were processed

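The authors trimmed adaptors with Cutadapt 1.1, removed rRNA and tRNA reads with Subread 2.0.0, and quantified stranded single-end reads with Salmon 0.14.2 against Release 6 transcripts. The deposited values are TPM, relative to each library's total, and estimated counts of reads, not normalised. From them, scaledTPM (TPM times total reads over total TPM, the option of the study's methods) was computed and rounded to whole numbers. edgeR 4.0.16 (R 4.3.3) was used with filterByExpr (minimum count 10, minimum total 15), TMM factors and the legacy quasi-likelihood F-test, two-sided, with Benjamini-Hochberg adjustment over the whole table. The table was fitted with the 6 isoforms as rows, with how-RB, how-RC and the long class, and with the sum. The F statistic gave the SEs, and log2 CPM had a prior count of 2. Fits between lines assume that the lone nanos-GAL4 libraries vary like the others. Alternatives used DESeq2 1.42.0 and limma 3.58.1. On simulated data the main enrichment fit recovered 10.5% of 2-fold and 79.5% of 4-fold changes. The simulation had no pair effect and drew its changed transcripts from those with a mean count of 10 or more. edgeR's prior degrees of freedom, its weight on the spread shared by transcripts, were 48.98 and infinite there, against 1.882 in the real fit. These rates therefore need not hold for the real libraries and may be too high for them. Intervals are at 95% and floors are 3 counts.

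Pair was kept as a block because the methods take input and pull-down from 1 lysate. Deviations of same-numbered libraries correlated at -0.03, -0.01 and 0.01. The study describes the HOW(S)-HA pull-downs as independent biological replicates. Named transcripts are the 6 members, their sums and those most like how-RB. Members and lists were chosen with earlier results of these data known. Lists of other STAR-family genes, HOW targets and cell type markers were not analysed here, for lack of a pairing of transcripts with gene names.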

Additional observations from a re-analysis of the deposited data

Results flagged for a closer look

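From input to pull-down, 4 shares of how TPM moved one way in all 3 HOW(S)-HA pairs and the other way in the single nanos-GAL4 pair, and these differences between lines were not tested. The how-RB share moved by 42.6, 16.5 and 6.86 percentage points with HOW(S)-HA and by -3.29 points with nanos-GAL4. The how-RC share moved by -12.8, -5.35 and -3.35 points and by 2.59 points, and the share of the long class by -29.8, -11.1 and -3.52 points and by 0.704 points. The how-RE share moved by -12.4, -9.27 and -4.63 points and by 0.391 points. The shares of a library add to the whole, so these movements are not independent of each other.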

How the results depend on the processing

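Of the alternatives, 329 values kept their direction and side of the threshold or stayed within the spread. Another 10 passed the threshold where the main value did not, 17 moved further, most of them counts of called transcripts, and 5 reversed direction. The filter with all libraries as 1 group gave 405 enriched and 49 depleted transcripts of 12618 tested. Of 16878 tested, library totals gave 347 and 9, DESeq2 532 and 246, and limma-voom 243 and 34. Of the same 16878, edgeR's current method gave 46 and 1 and the fit without the replicate block (pairing) 542 and 78. Estimated reads with the filter as 1 group, chosen after seeing the data, gave 345 and 17 of 15656. Leaving out any 1 replicate gave 0. For the enrichment of the how sum, log2 values past the threshold were 1.69 with the filter as 1 group, 1.62 with DESeq2, 1.60 with limma-voom, 1.73 without the replicate block and 1.43 with estimated reads and the filter as 1 group. how-RB was past it at 2.58 with DESeq2, as description only, because it entered the test through the pull-downs. how-RC passed at 1.38 (filter as 1 group) and 1.32 (no replicate block), and the long class at 1.09 and 1.02 under those same settings. No paired change altered another call of the how rows.

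Leaving out 1 HOW(S)-HA replicate gave an enrichment of 1.44 to 1.78 for the sum and 2.04 to 2.96 for how-RB, with adjusted p values of 0.148 to 0.583 and 0.153 to 0.582, and a how-RB share gain of 11.7 to 29.5 percentage points, lowest without replicate 1. The pull-down difference of how-RB between lines was 1.23 to 2.36, also lowest without replicate 1. With library totals the input difference between lines reversed to -0.200 for the sum and -0.092 for how-RC, and the pull-down difference of how-RE to -0.10, as it did with limma-voom (-0.029) and without replicate 1 (-0.17, against 0.63 without replicate 2). None of these was called. The nanos-GAL4 log2 ratios became 1.48 for the sum, 1.30 for how-RB, 1.59 for how-RC and 1.51 for the long class with library totals. Causes were not tested. how-RB was not tested with scaledTPM and the filter as 1 group, where it was too low. Depth limits how-RB, with 23.6 estimated reads in HOW(S)-HA input 1, and the long isoforms listed at 0.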
